A study of Mus musculus with 3 samples.

Results

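The matrix metalloproteinases, their tissue inhibitors and the ADAMTS proteins were described across 3 libraries of mouse myotubes. The members are the loci whose gene name is a single symbol of the form Mmp, Timp, Adamts or Adamtsl with a number, and 51 of the 24401 loci of the table matched. They comprise 23 Mmp, 4 Timp, 19 Adamts and 5 Adamtsl genes. Of these, 27 had a mean FPKM (a fragment count divided by transcript length and by the library's mapped fragments) of 1 or more over the libraries and entered the comparisons. Just inside that limit lay Adamtsl1, with a mean of 1.62 FPKM, and just outside it lay Mmp9, with a mean of 0.563 FPKM.

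RNA was taken from C2C12 cells, a mouse myoblast line that fuses into myotubes when serum is withdrawn. Differentiation lasted 72 hours in all 3 cultures, with horse serum at 2% and insulin at 1 µg/ml in DMEM, and the test media then stayed on for 24 hours. The cells had been grown before with 10% fetal bovine serum. The resveratrol culture, called "with resveratrol" throughout, received medium conditioned for 24 hours by S2-013 cells, a human pancreatic cancer line, with 50 µM resveratrol, a plant polyphenol. The conditioned media culture received such medium without resveratrol, and the control culture received DMEM. No culture with resveratrol in plain DMEM is among these libraries, so an effect of resveratrol alone cannot be told apart from one that needs conditioned media. The series compared how cancer cell medium and added resveratrol affect myotubes. Each group held 1 library of 1 cell line, so that no difference below has a replicate check and none could be tested, and all values are without an SD.

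The labels call the cells myoblasts, but all 6 skeletal muscle markers were present in each library, with summed levels of 3839 FPKM with resveratrol, 2610 FPKM in conditioned media and 2762 FPKM in control. Acta1 made up most of the sum, with 2272 FPKM with resveratrol, 1496 FPKM in conditioned media and 1568 FPKM in control, whereas Ckm (43.2 FPKM with resveratrol, 56.3 FPKM in conditioned media and 60.8 FPKM in control) and Tnnt1 were lowest with resveratrol. Among 6 macrophage markers only Cd68 reached 1 FPKM (1.82 FPKM with resveratrol, 1.49 FPKM in conditioned media and 1.02 FPKM in control), and Ptprc and Adgre1 were listed at 0 in each library. None of 4 endothelial markers reached 1 FPKM. Of 5 epithelial markers, Krt19 alone did, at 1.19 FPKM with resveratrol, 2.74 FPKM in conditioned media and 1.91 FPKM in control. Read totals are unknown, because FPKM carries no count.

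Metalloproteinases use a zinc ion to cut proteins outside the cell and at its surface. Most MMPs are made as inactive proenzymes, in which a cysteine of the propeptide blocks the zinc, and cleavage by other proteinases frees them. TIMPs bind the active site of the mature enzymes. ADAMTS proteinases are secreted relatives with thrombospondin repeats that anchor them in the matrix, and ADAMTS-like proteins share those repeats but lack the catalytic domain. In muscle, MMP2, MMP9 and MMP14 are known for remodelling the basement membrane and matrix during myoblast migration, fusion and regeneration.

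Promoter sequences are shown first, for the genes on which the results turn and for an Mmp cluster whose members lay at or near 0. RefSeq promoters (build GRCm38.p6, 250 bases before to 50 bases after the transcript start) matched 36 of the 51 members by symbol. For Mmp11, Timp3 and Adamts1, which lay farthest from conditioned media among the members with an entry, the 150 bases from 100 before to 50 after the start follow, 5′ to 3′ on the gene's strand. Capitals mark the letters TATAA, which were chosen after the sequences were seen. A match of these letters does not show that they act as a core promoter element. The Mmp11 stretch is chr10:75932453-75932602 (minus strand), that of Timp3 is chr10:86300312-86300461 (plus strand) and that of Adamts1 is chr16:85803064-85803213 (minus strand).
Mmp11: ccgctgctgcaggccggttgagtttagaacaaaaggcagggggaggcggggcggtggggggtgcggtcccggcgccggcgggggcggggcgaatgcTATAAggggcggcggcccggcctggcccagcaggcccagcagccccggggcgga
Timp3: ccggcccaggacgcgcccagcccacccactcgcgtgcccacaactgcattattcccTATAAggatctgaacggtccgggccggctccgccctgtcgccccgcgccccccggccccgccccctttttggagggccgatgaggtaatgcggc
Adamts1: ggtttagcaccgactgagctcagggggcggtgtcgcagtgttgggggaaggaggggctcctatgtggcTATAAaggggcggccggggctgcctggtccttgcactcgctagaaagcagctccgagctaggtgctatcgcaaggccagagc
TATAA, on either strand, occurred in 24.9% of the 32851 promoters of the table and in those of 14 of the 36 members with an entry. Of the 17 members with a mean of 1 FPKM or more and an entry, 4 held it, namely Mmp11, Timp3, Adamts1 and Adamtsl2. The match began 4 bases before the annotated start in Mmp11, 44 bases before it in Timp3 and 32 bases before it in Adamts1.

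Motifs of the stimulus-responsive factors AP-1, NF-kappaB and STAT were searched on both strands of all promoters. The AP-1 consensus TGANTCA was found in 7.81% of all promoters and in those of 8 of the 36 members with an entry. All 8 lie in the Mmp cluster of chromosome 9, and 0 of the 26 members with an entry outside that cluster held it. The 67 bases centred on each match are shown in the order of the genes along the chromosome, because this shared element stands beside levels at or near 0. The windows lie at chr9:7272449-7272515 for Mmp13, chr9:7347300-7347366 for Mmp12, chr9:7388083-7388149 for Mmp1b, chr9:7445746-7445812 for Mmp3, chr9:7464038-7464104 for Mmp1a, chr9:7502249-7502315 for Mmp10, chr9:7628106-7628172 for Mmp20 and chr9:7691997-7692063 for Mmp7 (GRCm38.p6). They are on the plus strand, and that of Mmp1b on the minus strand. Capitals mark the AP-1 match, which was TGAGTCA in 6 promoters, TGACTCA in Mmp13 and TGAATCA in Mmp20.
Mmp13: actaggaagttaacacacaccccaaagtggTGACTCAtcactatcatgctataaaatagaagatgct
Mmp12: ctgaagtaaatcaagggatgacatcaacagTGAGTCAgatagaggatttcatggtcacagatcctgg
Mmp1b: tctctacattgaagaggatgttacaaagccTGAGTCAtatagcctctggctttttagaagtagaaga
Mmp3: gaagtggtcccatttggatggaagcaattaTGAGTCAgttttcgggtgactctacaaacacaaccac
Mmp1a: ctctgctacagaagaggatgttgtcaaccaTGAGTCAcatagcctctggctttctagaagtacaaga
Mmp10: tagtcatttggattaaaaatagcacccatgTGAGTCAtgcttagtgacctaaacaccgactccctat
Mmp20: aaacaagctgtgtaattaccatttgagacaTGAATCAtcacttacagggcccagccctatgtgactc
Mmp7: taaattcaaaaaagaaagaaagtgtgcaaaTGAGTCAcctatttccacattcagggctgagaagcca
The match began 35 bases before the annotated start in Mmp13, 46 in Mmp3, 63 in Mmp10 and Mmp7, and 95 in Mmp20. For Mmp12 and Mmp7, RefSeq gives 2 starts, and the match lies at 1 of them. Mmp8 and Mmp27, the other members of the cluster, had no match in these windows. The kappaB letters GGANTTTCC occurred in 1.25% of all promoters and, among the members, in that of Mmp1b. The STAT letters TTCNNNGAA occurred in 8.30% of all promoters and, among the members, in that of Mmp23.

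The cluster holds 10 Mmp genes within 427 kilobases (chr9:7272514-7699585, mm10, GENCODE M21 gene models). It includes the interstitial collagenases Mmp1a, Mmp1b, Mmp8 and Mmp13, the stromelysins Mmp3 and Mmp10, matrilysin Mmp7, macrophage elastase Mmp12 and enamelysin Mmp20. The highest value of the cluster was 0.302 FPKM, that of Mmp13 in conditioned media, against 0.249 FPKM in control. With resveratrol, Mmp13 stood at 0.236 FPKM. Mmp3, Mmp8 and Mmp10 were above 0 in at least 1 library, and the other 6 were listed at 0 in each library.

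**Figure D1:**
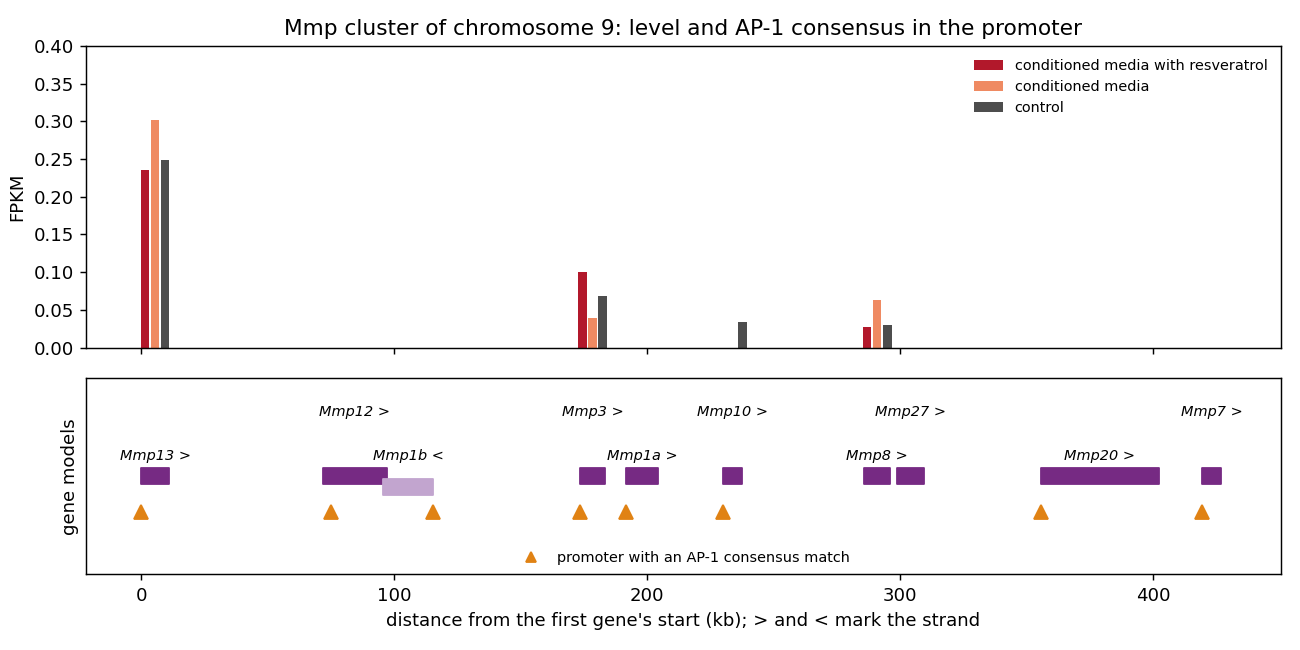
The upper panel plots FPKM of the 10 genes of the chromosome 9 Mmp cluster in the 3 libraries, and the lower panel their gene models against distance from the first gene's start in kilobases, with paler boxes for the minus strand and triangles at starts whose promoter holds the AP-1 consensus. The highest bar is Mmp13 in conditioned media at 0.302 FPKM, and 6 of the 10 genes were listed at 0 in each library.

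Among the other members with a mean under 1 FPKM, gelatinase B (Mmp9) came nearest, at 0.746 FPKM with resveratrol, 0.657 FPKM in conditioned media and 0.287 FPKM in control. Adamts9, which cleaves versican and aggrecan, stood at 0.571 FPKM with resveratrol, 0.626 FPKM in conditioned media and 0.164 FPKM in control, and shares 1381 exonic bases with A730049H05Rik of the other strand. Timp4 was at 0.0485 FPKM with resveratrol and 0.438 FPKM in conditioned media and was listed at 0 in control. Adamts3, Adamts15, Adamts17, Adamts18, Adamts20, Mmp17 and Mmp24 stayed below 0.4 FPKM in each library, and Mmp21, Mmp25, Adamts8 and Adamts19 were listed at 0. In all, 24 members lay under the limit, of which 14 were above 0 in at least 1 library.

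**Figure D2:**
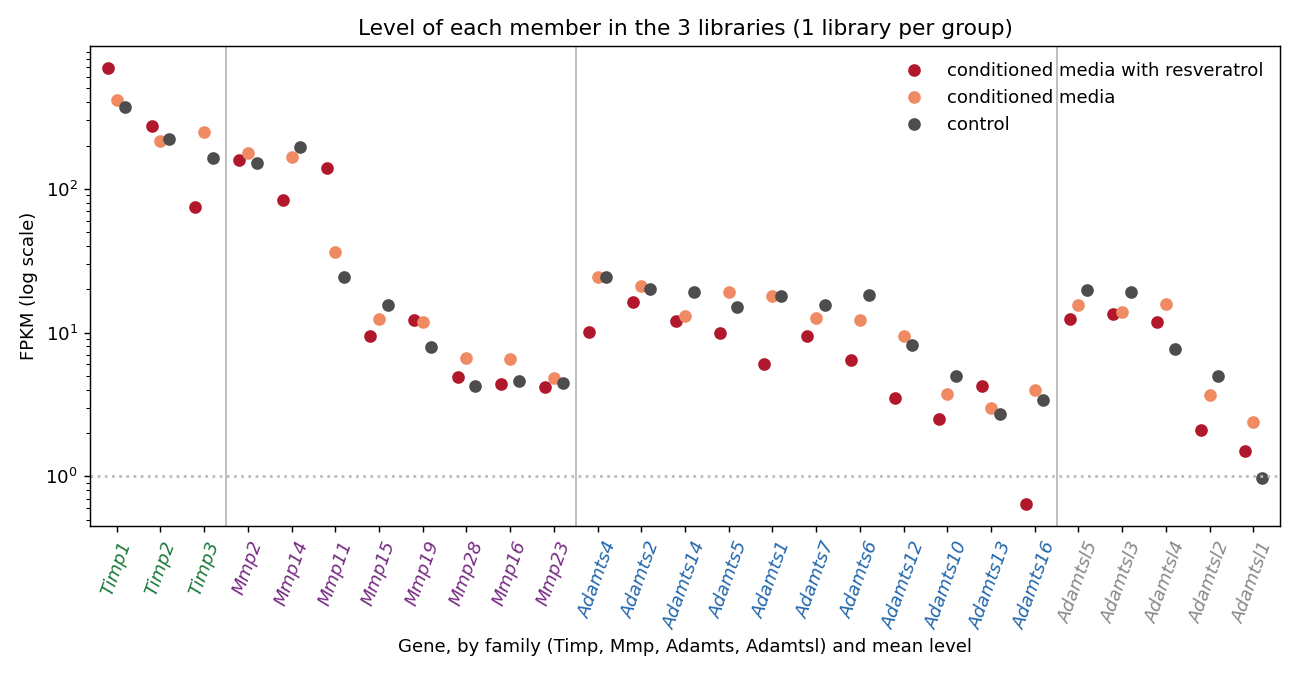
FPKM on a log axis is plotted for the 27 members with a mean of 1 FPKM or more, by family and level, with 1 point for each library and a dotted line at 1 FPKM. Timp1, Timp2, Timp3, Mmp2 and Mmp14 stand above the Adamts and Adamtsl genes in each library. Mmp11 does so too except in control, where Adamts4 (24.4 FPKM) lies just above it (24.2 FPKM). Mmp11 is highest with resveratrol, at 139 FPKM, while Adamts16 is lowest there, at 0.644 FPKM.

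Levels were compared by rank and by family sum. Timp1 had the highest level of the members in each library, and Timp1, Timp2, Timp3, Mmp2 and Mmp14 held the first 5 places in control and in conditioned media. With resveratrol, Mmp11 took the fourth place and Timp3 stood sixth. By mean level among the 11858 loci with a mean of 1 FPKM or more, Timp1 ranked 206 and Mmp11 ranked 1282. Summed over the family, Mmp genes came to 418 FPKM with resveratrol, 422 FPKM in conditioned media and 409 FPKM in control, so their sum moved little while its parts moved apart. The summed Adamts level was 82.2 FPKM with resveratrol, 142 FPKM in conditioned media and 150 FPKM in control. Timp genes summed to 1045 FPKM with resveratrol, 878 FPKM in conditioned media and 757 FPKM in control.

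**Figure D3:**
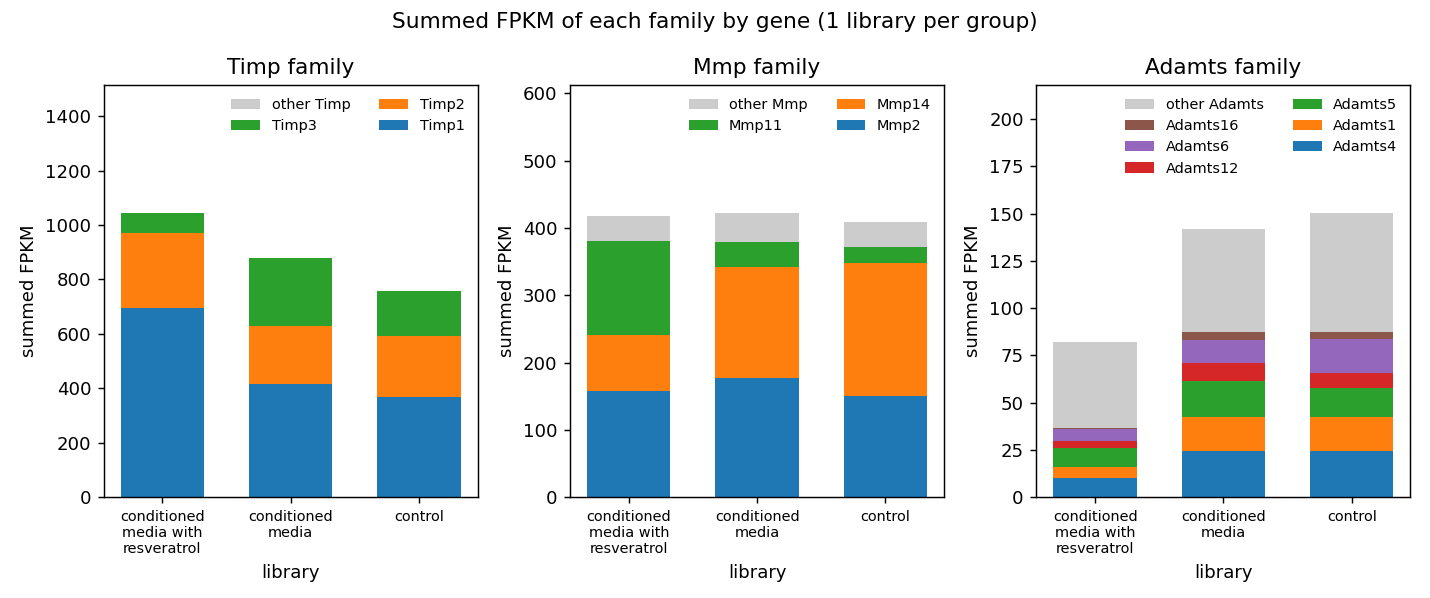
Stacked bars give the summed FPKM of the Timp, Mmp and Adamts families in each library, split by gene. The Mmp bars are of like height (418 FPKM with resveratrol, 422 FPKM in conditioned media and 409 FPKM in control) but hold more Mmp11 and less Mmp14 with resveratrol, and the Adamts bar is lowest with resveratrol, at 82.2 FPKM.

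With resveratrol in conditioned media, set against conditioned media alone, the stromelysin gene Mmp11 was higher, and the inhibitor gene Timp3 and several ADAMTS genes were lower. Differences are log2 ratios of FPKM + 1, which understate the change of low genes, and a member is called higher or lower by size when that ratio is 1 or more, or -1 or less. By this rule 1 of 27 members was higher, Mmp11, against 1.53% of all loci, and 5 were lower, against 4.97% of all loci: Timp3, Adamts1, Adamts4, Adamts12 and Adamts16. The 6 compare with 6.5% of all loci past the rule in either direction. The median log2 ratio was -0.37 over the 27 members and 0.03 over all 11858 loci, and 22 of the 27 ratios were below 0. The authors' deposited table tested 26 of them in this pair and called 4 higher and 17 lower, where it called 63.6% of all tested loci (34.1% higher and 29.5% lower). Those calls compare the libraries, not the conditions.

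Mmp11 encodes stromelysin 3, an MMP that furin activates inside the cell and that is known from stroma around tumours. It had 139 FPKM with resveratrol, 36.4 FPKM in conditioned media and 24.2 FPKM in control. The library with resveratrol was thus the high one, 3.83-fold above conditioned media (log2 ratio 1.91), and 0.0843% of all loci had a larger ratio. In the authors' deposited table its q-value for this pair is 0.000148. That value goes with the smallest deposited p, and Mmp2 has it too in this pair, at a log2 ratio of -0.16. Its deposited span, chr10:75923222-75932502 (mm10, as for the other spans), overlaps no other locus of the table. It took 33.4% of the summed Mmp FPKM with resveratrol, 8.61% in conditioned media and 5.90% in control.

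The inhibitors parted from each other. Timp3 (chr10:86048746-86498896, a span that takes in Syn3), which binds to the matrix and also inhibits ADAMTS and ADAM proteinases, stood at 74.5 FPKM with resveratrol, 247 FPKM in conditioned media and 164 FPKM in control. Conditioned media was the high library and resveratrol the low one (log2 ratio -1.72), and 0.717% of all loci had a lower ratio. Timp1, a secreted inhibitor that blocks most soluble MMPs, had 696 FPKM with resveratrol, 417 FPKM in conditioned media and 369 FPKM in control (log2 ratio 0.74 for resveratrol over conditioned media, short of the rule). Timp2, which inhibits MMPs and on the cell surface helps MMP14 to activate MMP2, had 274 FPKM with resveratrol, 214 FPKM in conditioned media and 223 FPKM in control (log2 ratio 0.36). Timp3 thereby made up 7.13% of the summed Timp FPKM with resveratrol, 28.1% in conditioned media and 21.7% in control, and Timp1 made up 66.6% with resveratrol, 47.5% in conditioned media and 48.8% in control.

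Timp1 lies inside Syn1 and Timp3 inside Syn3, each on the other strand. Timp3 shares 1733 exonic bases with Syn3, and since it is not given here whether the authors counted reads by strand, reads of those bases cannot be told apart. The Syn3 locus had 0.0186 FPKM with resveratrol, 0.128 FPKM in conditioned media and 0.110 FPKM in control. Timp1 shares no exonic base with Syn1, which had 2.75 FPKM with resveratrol, 7.77 FPKM in conditioned media and 4.64 FPKM in control. Both synapsin levels lay far below those of the Timp genes in each library. The deposited span of Timp1 is carried by 4 loci, the others being Syn1, Araf and Mir5617. How reads were divided among them is not given here. Araf had 52.2 FPKM with resveratrol, 43.6 FPKM in conditioned media and 41.5 FPKM in control, the same order of the libraries as Timp1.

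Among the remaining MMPs the membrane-type enzymes had ratios below 0, none of them past the rule. Mmp14 (chr14:54431353-54442282), the membrane-type MMP that cleaves collagen at the cell surface and activates proMMP2, had 83.6 FPKM with resveratrol, 166 FPKM in conditioned media and 197 FPKM in control. Its log2 ratio of -0.98 for resveratrol over conditioned media fell just short of the rule. Mmp15 had 9.44 FPKM with resveratrol, 12.4 FPKM in conditioned media and 15.6 FPKM in control, and Mmp16 had 4.40 FPKM with resveratrol, 6.52 FPKM in conditioned media and 4.63 FPKM in control. These encode further membrane-type MMPs, and with Mmp14 they make 3 of 3 expressed ones with ratios below 0. Mmp2, gelatinase A, was nearly level at 158 FPKM with resveratrol, 177 FPKM in conditioned media and 151 FPKM in control (log2 ratio -0.16). The level of Mmp14 relative to Timp2 was 0.305 with resveratrol, 0.775 in conditioned media and 0.881 in control.

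The secreted Mmp19, the epilysin Mmp28 and the membrane-anchored Mmp23 did not pass the rule in any pair. Mmp19 had 12.2 FPKM with resveratrol, 11.9 FPKM in conditioned media and 7.94 FPKM in control, but it shares 789 exonic bases with Tmem198b on the other strand, which had 13.4 FPKM with resveratrol, 21.3 FPKM in conditioned media and 14.3 FPKM in control. Mmp28 stood at 4.92 FPKM with resveratrol, 6.61 FPKM in conditioned media and 4.26 FPKM in control. It shares 466 exonic bases with 1700020L24Rik of the other strand, which had 3.81 FPKM with resveratrol, 4.97 FPKM in conditioned media and 3.03 FPKM in control, the same order of the libraries. Mmp23 lay at 4.20 FPKM with resveratrol, 4.81 FPKM in conditioned media and 4.48 FPKM in control, and the authors' deposited table calls it in none of the 3 pairs.

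ADAMTS genes mostly had lower values with resveratrol. Of the 11 compared, 10 had ratios below 0, against 47.4% of all loci, and 4 were lower by the rule, against 4.97% of all loci. The median log2 ratio was -0.82, against 0.03 over all loci. The count of 4 became 1 (Adamts1) at a pseudocount of 5 and 2 (Adamts1 and Adamts4) with TPM. The enzymes that cleave the hyalectans aggrecan and versican were among them. Adamts1 (chr16:85793828-85803115) had 6.08 FPKM with resveratrol, 17.98 FPKM in conditioned media and 18.1 FPKM in control, so conditioned media and control were alike and resveratrol was low (log2 ratio -1.42 over conditioned media). Adamts4 (chr1:171250279-171260591), an aggrecanase, had 10.1 FPKM with resveratrol, 24.3 FPKM in conditioned media and 24.4 FPKM in control (log2 ratio -1.19). Adamts5, the other major aggrecanase, was at 9.90 FPKM with resveratrol, 19.2 FPKM in conditioned media and 14.99 FPKM in control, and its log2 ratio of -0.89 did not pass the rule. The 7 hyalectan-cleaving members together came to 26.7 FPKM with resveratrol, 62.2 FPKM in conditioned media and 57.8 FPKM in control.

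Adamts16 (chr13:70727808-70841810) had 0.644 FPKM with resveratrol, 3.97 FPKM in conditioned media and 3.41 FPKM in control. Resveratrol was the low library by 6.17-fold in FPKM, or a log2 ratio of -1.60 with the pseudocount. Adamts12 (chr15:11064388-11349233), one of the pair of enzymes that cleave cartilage oligomeric matrix protein (COMP), had 3.51 FPKM with resveratrol, 9.51 FPKM in conditioned media and 8.17 FPKM in control (log2 ratio -1.22). The other of that pair, Adamts7, stood at 9.43 FPKM with resveratrol, 12.6 FPKM in conditioned media and 15.6 FPKM in control (log2 ratio -0.38). In both pairs with resveratrol on top, Adamts12 and Adamts16 were past the rule and Adamts7 was not, and the difference between the genes was not tested. Neither Adamts12 nor Adamts16 passed the rule at a pseudocount of 5 or with TPM, where for resveratrol over conditioned media Adamts12 stood at -0.77 and -0.95 and Adamts16 at -0.67 and -0.95.

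Adamts6 and its close relative Adamts10, which are known for roles in fibrillin microfibrils, lay in a graded order. Adamts6 had 6.48 FPKM with resveratrol, 12.3 FPKM in conditioned media and 18.2 FPKM in control, and Adamts10 had 2.49 FPKM with resveratrol, 3.73 FPKM in conditioned media and 5.01 FPKM in control. The procollagen N-propeptidases, which trim fibrillar procollagens, moved less. Adamts2 was at 16.4 FPKM with resveratrol, 21.1 FPKM in conditioned media and 20.0 FPKM in control, and Adamts14 at 12.1 FPKM with resveratrol, 13.1 FPKM in conditioned media and 19.1 FPKM in control. Adamts13, which cleaves von Willebrand factor, was the one ADAMTS gene with a ratio above 0, at 4.22 FPKM with resveratrol, 2.99 FPKM in conditioned media and 2.73 FPKM in control (log2 ratio 0.39).

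The ADAMTS-like genes all had ratios below 0 for resveratrol over conditioned media, against 47.4% of all loci, and 0 of 5 passed the rule, against 6.5% of all loci. Adamtsl2, whose product binds fibrillin and latent TGF-β binding proteins, had 2.10 FPKM with resveratrol, 3.66 FPKM in conditioned media and 4.99 FPKM in control. Adamtsl3 stood at 13.5 FPKM with resveratrol, 13.8 FPKM in conditioned media and 19.1 FPKM in control. Adamtsl5 was at 12.4 FPKM with resveratrol, 15.7 FPKM in conditioned media and 19.6 FPKM in control, but 48 loci carry the same deposited span, which leaves the value uncertain.

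**Figure D4:**
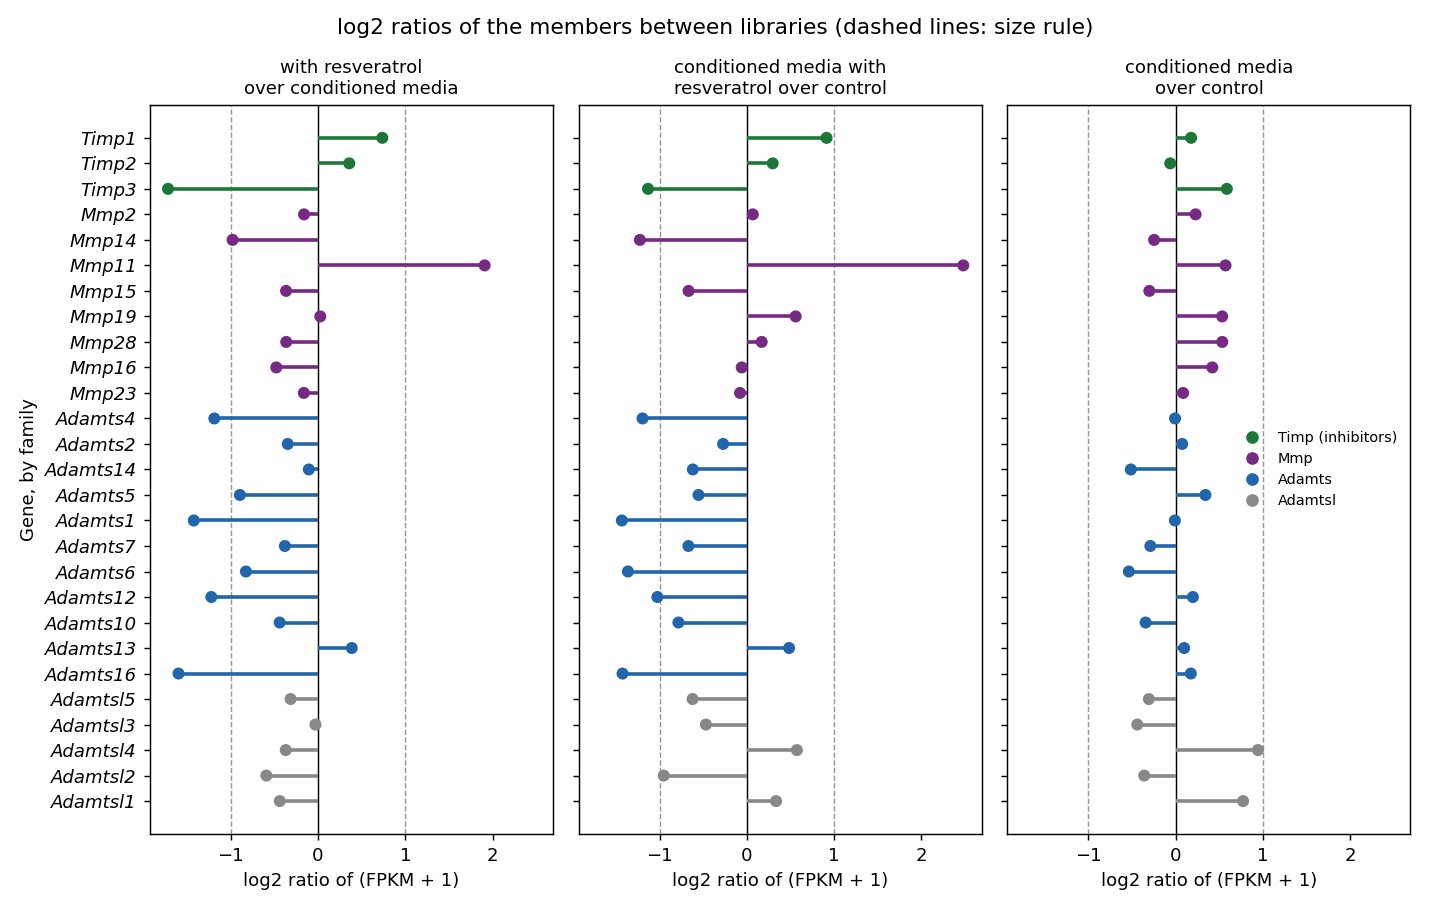
Points give the log2 ratio of FPKM + 1 for each of the 27 members in the 3 library pairs, coloured by family, with dashed lines at 1 and -1. Mmp11 stands at 1.91 and Timp3 at -1.72 for resveratrol over conditioned media, and no point passes a dashed line for conditioned media over control.

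**Figure D5:**
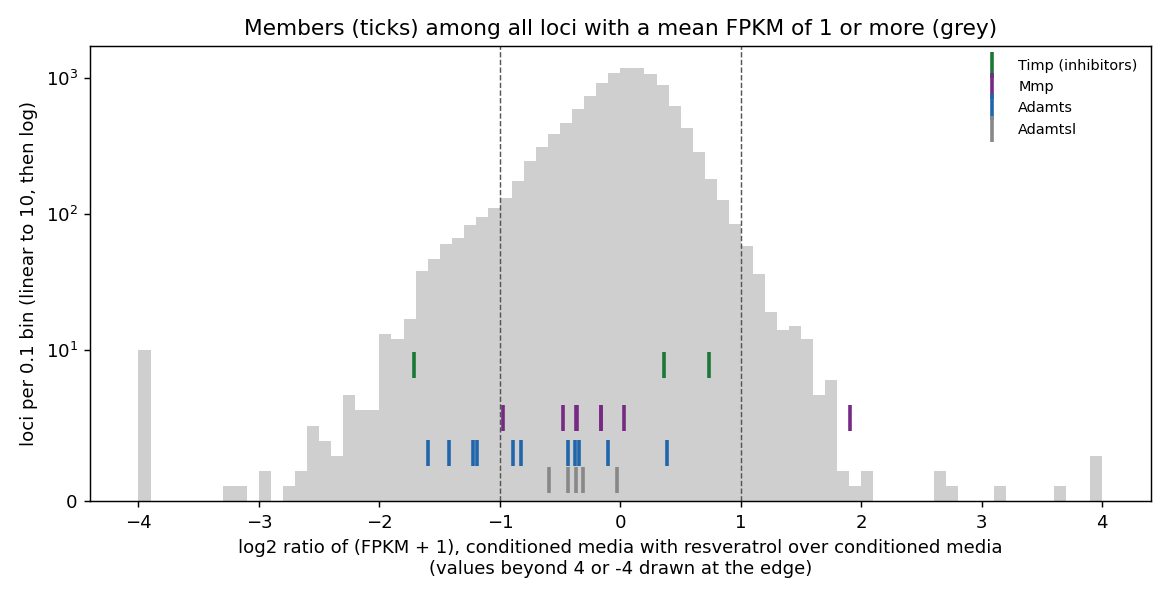
The grey histogram gives the log2 ratio of FPKM + 1 for resveratrol over conditioned media at 11858 loci, with counts linear to 10 and then on a log scale, and ticks mark the 27 members by family. Of the 11 Adamts ticks 10 lie below 0, and the Mmp11 tick at 1.91 lies at the right edge of the main body of loci.

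Resveratrol in conditioned media was next set against control, a pair that shares its resveratrol library with the comparison above. By the rule 1 member was higher, against 3.6% of all loci, and 7 were lower, against 5.25% of all loci (8.85% in either direction). The median log2 ratio was -0.55 over the members and 0.00 over all loci. Mmp11 was the one higher, 5.77-fold in FPKM (log2 ratio 2.48). Those lower were Timp3, with a log2 ratio of -1.13, Mmp14 at -1.22, Adamts1 at -1.43, Adamts4 at -1.19, Adamts6 at -1.36, Adamts12 at -1.02 and Adamts16 at -1.42. Adamtsl2 came close at -0.95, as did Timp1 on the higher side at 0.91. Rescaling FPKM to TPM lifted the median of all loci to 0.14 in this pair. With TPM, 2 members were higher (Mmp11 and Timp1) and 3 lower (Mmp14, Adamts1 and Adamts6). All loci split into 354 higher and 219 lower in place of 427 and 622. That scale divides by each library's FPKM sum, most of which lay in loci of 200 bases or less. The share of such loci was 78.4% with resveratrol, the lowest of the 3 libraries. TPM are also smaller than FPKM here, so the pseudocount of 1 weighs more beside them. How far the calls lost with TPM come from the scale was not tested. The authors' deposited table called 7 of 26 tested members higher and 16 lower in this pair, where 68.2% of all tested loci were called, 34.1% in each direction.

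Conditioned media alone and control lay closer together. No member passed the rule in either direction, against 1.98% of all loci higher and 0.751% lower (2.73% in either direction). With TPM this stayed so for the members, while all loci split into 146 higher and 30 lower in place of 235 and 89. Adamtsl4, which binds fibrillin microfibrils and is known for its role in the lens zonule, was nearest on the higher side, at 15.7 FPKM in conditioned media and 7.69 FPKM in control (log2 ratio 0.94), with 11.9 FPKM with resveratrol. Adamtsl1 had 2.38 FPKM in conditioned media and 0.978 FPKM in control (log2 ratio 0.77), with 1.495 FPKM with resveratrol, and the authors' deposited table did not test it. The next ratios were those of Timp3 (0.59), Mmp11 (0.57), Mmp19 (0.53) and Mmp28 (0.53). At the lower end stood Adamts6 (-0.54) and Adamts14 (-0.51). The median log2 ratio was 0.08 over the members and -0.01 over all loci. The Mmp median was 0.32, and the Adamts median of -0.01 turned to 0.16 with TPM and to 0.0034 with centring on the median. The authors' deposited table called 10 of 26 tested members higher and 9 lower, where it called 55.7% of all tested loci (25.8% higher and 29.9% lower).

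Other genes of the pathway were taken from 9 lists, each counted by the same rule among genes with a mean of 1 FPKM or more. Beside these counts stand 1.53% of all loci higher and 4.97% lower for resveratrol over conditioned media, and 3.6% higher and 5.25% lower for resveratrol over control. The lists are short, so nothing is read from a share of 1 or a few genes. Of 5 genes of plasminogen activation and proprotein cleavage, steps that activate MMPs, 2 were lower with resveratrol than in conditioned media and 0 higher, with the same counts against control. Plau, which encodes the urokinase plasminogen activator, had 5.58 FPKM with resveratrol, 25.3 FPKM in conditioned media and 34.1 FPKM in control, and its receptor gene Plaur had 3.04 FPKM with resveratrol, 10.2 FPKM in conditioned media and 12.3 FPKM in control. Furin, the proprotein convertase that activates MMP11 and MMP14, had 25.1 FPKM with resveratrol, 32.5 FPKM in conditioned media and 40.6 FPKM in control. Plat, the tissue plasminogen activator gene, had 63.1 FPKM with resveratrol, 81.6 FPKM in conditioned media and 52.0 FPKM in control. Of 4 serpins that check plasminogen activation 0 passed the rule in any pair, and Serpine2, which encodes protease nexin 1, had 47.8 FPKM with resveratrol, 53.2 FPKM in conditioned media and 38.4 FPKM in control.

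Inhibitors and clearance genes outside the Timp family had 7 compared, with 0 past the rule for resveratrol over conditioned media. Against control, Reck, a membrane-anchored MMP inhibitor, was higher with resveratrol, at 4.74 FPKM against 1.61 FPKM in control, with 3.60 FPKM in conditioned media. Thbs1, thrombospondin 1, was lower, at 268 FPKM with resveratrol against 721 FPKM in control, with 448 FPKM in conditioned media, and so was Pcolce2, a procollagen proteinase enhancer, at 6.69 FPKM with resveratrol against 15.1 FPKM in control. Of 7 membrane ADAM proteinases, Adam12, a gene known from muscle regeneration and fusion, was lower at 3.88 FPKM with resveratrol, 10.8 FPKM in conditioned media and 16.1 FPKM in control. Among 3 astacin and pappalysin metalloproteinases Pappa, which cleaves IGF binding proteins, was lower at 0.359 FPKM with resveratrol, 2.02 FPKM in conditioned media and 3.15 FPKM in control. Both Adam12 and Pappa passed the rule against conditioned media and against control. Bmp1, the procollagen C-proteinase, did not pass the rule, at 56.3 FPKM with resveratrol, 64.0 FPKM in conditioned media and 66.1 FPKM in control.

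Among inducers and docking proteins 13 were compared. Il1r1, the interleukin 1 receptor gene, was lower with resveratrol than in conditioned media, at 10.2 FPKM against 24.8 FPKM, with 15.6 FPKM in control. Higher with resveratrol than in control were the cytokine gene Il6, at 18.6 FPKM against 5.72 FPKM, the oncostatin M receptor gene Osmr, at 55.3 FPKM against 21.1 FPKM, and the syndecan gene Sdc4, at 174 FPKM against 80.6 FPKM. Of 5 proteoglycan substrates, Vcan, the versican gene, was lower at 69.1 FPKM with resveratrol, 148 FPKM in conditioned media and 108 FPKM in control. Against control, 0 of the 5 passed the rule. Of 12 fibrillin and microfibril genes, Emilin1 and Mfap5 were lower with resveratrol than in conditioned media, Emilin1 at 7.22 FPKM against 21.4 FPKM and Mfap5 at 13.2 FPKM against 31.8 FPKM. Against control, Mfap5 was lower and Ltbp2, a latent TGF-β binding protein gene, was higher, at 64.7 FPKM with resveratrol and 28.0 FPKM in control. Among 15 AP-1, ETS and C/EBP factors, 3 were higher and 2 lower with resveratrol than in conditioned media, and 5 were higher and 2 lower with resveratrol than in control. Over all loci these shares were 1.53% higher and 4.97% lower against conditioned media, and 3.6% and 5.25% against control. Fos, an AP-1 subunit, had 11.5 FPKM with resveratrol, 3.18 FPKM in conditioned media and 2.60 FPKM in control, while Fosl1, which encodes the AP-1 subunit FRA1, had 3.50 FPKM with resveratrol, 9.61 FPKM in conditioned media and 11.2 FPKM in control. Cebpb stood at 38.5 FPKM with resveratrol, 14.9 FPKM in conditioned media and 14.1 FPKM in control. Cebpd was the one gene of these 9 lists past the rule for conditioned media over control. It had 41.0 FPKM with resveratrol, 22.8 FPKM in conditioned media and 9.72 FPKM in control. Over all loci, 1.98% were higher and 0.751% lower in that pair.

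Fibroblast markers differed between the libraries as well. Of 5 such markers, Col1a1, Pdgfra and Dpt reached 1 FPKM, and the summed level of all 5 was 538 FPKM with resveratrol, 1070 FPKM in conditioned media and 909 FPKM in control, most of it Col1a1 (527 FPKM with resveratrol, 1056 FPKM in conditioned media and 899 FPKM in control). Pdgfra had 6.98 FPKM with resveratrol, 9.86 FPKM in conditioned media and 4.98 FPKM in control, and Dpt had 2.98 FPKM with resveratrol, 3.78 FPKM in conditioned media and 4.39 FPKM in control. Lum and Thy1 were below 1 FPKM in each library. Col1a1 was thus lowest with resveratrol, as were Timp3 and most ADAMTS genes, while Pdgfra and Lum were lowest in control. The cultures are of 1 cell line, so these markers do not show that fibroblasts were present. In bulk RNA, fewer cells that express a gene and less RNA per cell cannot be told apart, and this was not tested.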

How the data were processed

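A gene-level table of Cuffdiff results was used, per the file headers. Cuffdiff 2.2.1.3, Cufflinks 2.2.1.0, TopHat2 2.1.0 with Bowtie, Trim Galore 0.4.3.1, FastQC 0.69 and the mm10 build are named by the submitters' processing notes. How libraries were scaled, which annotation was used and whether strand was counted is not given here. FPKM were computed by the authors. The authors' log2 fold changes carry no pseudocount, the test statistic is the authors' score, and p-values and q-values are as deposited, with a smallest p of 5e-05. Depth is unknown: the most frequent ratio between low values of 2 libraries was shared by at most 9 of 4286 loci.

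Libraries were grouped by their treatment labels, 1 per group, and no test of the conditions was made. Ratios are log2((FPKM + 1)/(FPKM + 1)), called at an absolute value of 1 or more among loci whose mean reached 1 FPKM. The calling was checked on simulated data, with little noise and changes well past the rule planted in genes well above the mean limit. That setting checks the code, and it gives no error rate for low genes or for calls in these libraries. Shares over all loci are given for the counts of members and lists. Members at or above the mean limit are named with all values, the rest in groups, and up to 4 genes per list by largest absolute ratio, of which some are not reported here. The members and the lists were chosen with earlier results of these data known. Positions are 1-based. Gene models are from GENCODE M21, the same build, and promoters from RefSeq. Python 3.11.15, pandas 2.3.3 and numpy 2.4.6 were used. Alternatives were pseudocounts of 0.1 and 5, no filter or a mean of 5 FPKM, TPM, centring on the median, and leaving out members whose span overlaps another locus.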

Additional observations from a re-analysis of the deposited data

How the results depend on the processing

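No paired analysis was possible because each group holds 1 library and the columns carry no replicate numbers, and leaving out a library was not possible for the same reason. For the 27 members in 3 pairs, 531 ratios were recomputed under the alternatives: 514 kept their side of the size rule, 12 fell short of it, and 5 newly passed it. None that passed it turned sign, and 7 near 0 did. The filters on mean FPKM and leaving out overlapping members change which members are counted, not a member's ratio. Ratios under those settings therefore could not move and are among those that kept their side. For conditioned media over control, the count of members past the rule became 2 at a pseudocount of 0.1 (Adamtsl4 and Adamtsl1). For resveratrol over conditioned media the count of 6 became 3 at a pseudocount of 5, and for resveratrol over control the count of 8 became 5 at that pseudocount and 5 with TPM. Adamts12 and Adamts16 fell short of the rule at a pseudocount of 5 and with TPM in both resveratrol pairs. A ratio of low values shrinks when a pseudocount is larger beside them. How far the losses with TPM come from that or from the scale was not tested. Adamts4 fell short at a pseudocount of 5 in both pairs, and with TPM against control. Timp3 against control stood at -0.92 with TPM, and Mmp14 passed the rule with resveratrol over conditioned media, at -1.003, after centring on the median. The median log2 ratio of the members moved to -0.052 without a filter for resveratrol over conditioned media. For resveratrol over control it moved to -0.42 at a pseudocount of 5, to -0.32 with TPM, and to 0 without a filter, where 24 members near 0 enter. With TPM, the median of all loci moved to 0.14 for each conditioned media library over control. This shift follows the FPKM sums, which lie mostly in loci of 200 bases or less. Mmp11 and Adamts1 stayed past the rule in both resveratrol pairs under each alternative that changes ratios, namely both pseudocounts, TPM and centring on the median. Over all loci, the higher and lower counts also moved. For resveratrol over conditioned media, 182 higher and 589 lower became 299 and 884 at a pseudocount of 0.1, 65 and 178 at 5, and 99 and 274 with TPM. For resveratrol over control, 427 and 622 became 161 and 229 at a pseudocount of 5. For conditioned media over control, 235 and 89 became 450 and 149 at 0.1, and 56 and 38 at 5.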

Other observations

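Some members are neighbours on a chromosome. Adamts1 and Adamts5 lie 53059 bases apart on the minus strand of chromosome 16 (GENCODE M21 gene models), and their log2 ratios for resveratrol over conditioned media were -1.42 and -0.89. Adamts13 and Adamtsl2 lie 69750 bases apart on the plus strand of chromosome 2, and their log2 ratios for the same pair were 0.39 and -0.59. Adamts15 and Adamts8, 20109 bases apart on chromosome 9, were below 0.1 FPKM or listed at 0 in each library. The ratio of Timp1 to Timp3 in FPKM was 9.34 with resveratrol, 1.69 in conditioned media and 2.24 in control, and that of summed Timp to summed Mmp was 2.50 with resveratrol, 2.08 in conditioned media and 1.85 in control. The ratio of Mmp2 to Mmp14 was 1.89 with resveratrol, 1.07 in conditioned media and 0.766 in control.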
